A study of Mus musculus with 6 samples.

Results

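Store-operated calcium entry is the route by which lymphocytes refill their calcium after the stores of the endoplasmic reticulum (ER) have been emptied. The ER membrane proteins STIM1 and STIM2 sense the loss of calcium from the ER, and they open channels in the plasma membrane that are built from ORAI1, ORAI2 and ORAI3. SARAF, an ER membrane protein also known as TMEM66, binds the open complex and promotes its slow inactivation, which protects the cell from overfilling. In B cells this entry follows engagement of the B cell receptor and feeds the phosphatase calcineurin and the NFAT transcription factors.

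Transcripts of these 6 genes (Saraf, Stim1, Stim2, Orai1, Orai2 and Orai3) are described here, out of 54838 gene identifiers in the count table, and all 6 were among the 15136 genes that passed the filter on low counts. Saraf was chosen by its measured rise in the comparison of Cpd10 with DMSO, where it was a called gene. The other 5 were added because their proteins work with SARAF, with the results of that comparison already known. Fold changes and p-values of the 6 genes in this comparison are therefore given as a description, not as tests.

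The cells were naive B cells sorted from the spleens of 10 male mice, 3 months old, that had been immunised with sheep red blood cells 9 days before. Cells from 2 independent experiments were pooled, and an antibody to CD40 (5 µg/ml) together with interleukin 4 (80 ng/ml) kept them activated over 5 days of culture. The treated cultures received 1 µM Cpd10, described in the labels as a FOXO1 inhibitor, for 48 hours from day 3, and their controls received the solvent DMSO over the same hours, with 3 libraries per group. The labels give the same pool of animals and the same activating signals for all libraries. The libraries still fell into sets that crossed the treatment, as described below, and the source of these sets was not tested. The mouse strain is not named in the sources used here, and 1 compound at 1 dose and 1 time was measured.

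Libraries held 36873204 to 44859930 counts. Among B cell markers, Cd79a was at 598 to 829 CPM in Cpd10 libraries and 642 to 815 CPM in DMSO libraries, where CPM are counts scaled to library size with TMM factors. Cd79b was at 803 to 1241 CPM in Cpd10 and 881 to 941 CPM in DMSO, and Pax5 at 433 to 532 CPM in Cpd10 and 451 to 577 CPM in DMSO. The 6 T cell markers summed to at most 1.01 CPM in Cpd10 and 1.71 CPM in DMSO, the 6 myeloid markers to 8.81 to 15.4 CPM in Cpd10 and 14.2 to 22.2 CPM in DMSO, nearly all of it Adgre1. The 4 NK cell markers summed to 1.98 to 6.15 CPM in Cpd10 and 3.58 to 9.59 CPM in DMSO, mostly Prf1, with Ncr1 at 0 counts throughout. The 5 plasma cell markers, of which Xbp1 and Irf4 are also used by activated B cells, summed to 2155 to 3086 CPM in Cpd10 and 2018 to 4359 CPM in DMSO. The members of that sum lay on both sides of zero, with log2 fold changes of 0.13 for Xbp1 and 0.39 for Irf4, and of -0.89 for Prdm1, -1.39 for Jchain and -1.40 for Sdc1. Jchain, which joins secreted antibody units, was at 732, 262 and 224 CPM in Cpd10 A, B and C and 730, 407 and 2057 CPM in DMSO A, B and C. Sdc1, which encodes CD138, was at 37.7, 7.41 and 6.87 CPM in Cpd10 and 39.2, 10.7 and 87.7 CPM in DMSO. DMSO C was the highest library for Jchain, Sdc1 and Prdm1. None of these markers was called by edgeR without the library set term described next, Adgre1 and Irf4 were called with it, and the part of these cells in the results below was not tested. The libraries also fell into sets that crossed the treatment: Cpd10 A, DMSO A and DMSO C formed set 1, and Cpd10 B, Cpd10 C and DMSO B set 2. The set is not in the labels and was read from the counts, so values that use it are exploratory.

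Saraf (ENSMUSG00000031532, GRCm38 chromosome 8, 34154575 to 34170821, plus strand) was at 226, 202 and 186 CPM in Cpd10 libraries A, B and C, and at 69.9, 47.1 and 81.5 CPM in DMSO libraries A, B and C. Every Cpd10 library lay far above every DMSO library. The means were 205 ± 20.6 CPM in Cpd10 and 66.1 ± 17.5 CPM in DMSO (SD, n = 3 each), a fitted fold of 3.10 and a log2 fold change of 1.63 (SE 0.20). In edgeR's quasi-likelihood test its adjusted p was 0.0292, which is the call that chose it; 56 genes, or 0.370% of those tested, were called. In bulk RNA, more transcript per cell cannot be told apart from more cells that carry it.

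Leaving out single libraries moved the log2 fold change of Saraf between 1.44, without DMSO B, and 1.81, without DMSO C. The edgeR adjusted p stayed under 0.05 without DMSO B (0.0138) or Cpd10 A (0.0491) and passed above it without Cpd10 B (0.129), Cpd10 C (0.138), DMSO A (0.174) or DMSO C (0.0810). Within set 1 the log2 difference, Cpd10 minus DMSO, was 1.59, and within set 2 it was 2.04. DMSO B, the only DMSO library of set 2, had the lowest Saraf level of all.

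**Figure D1:**
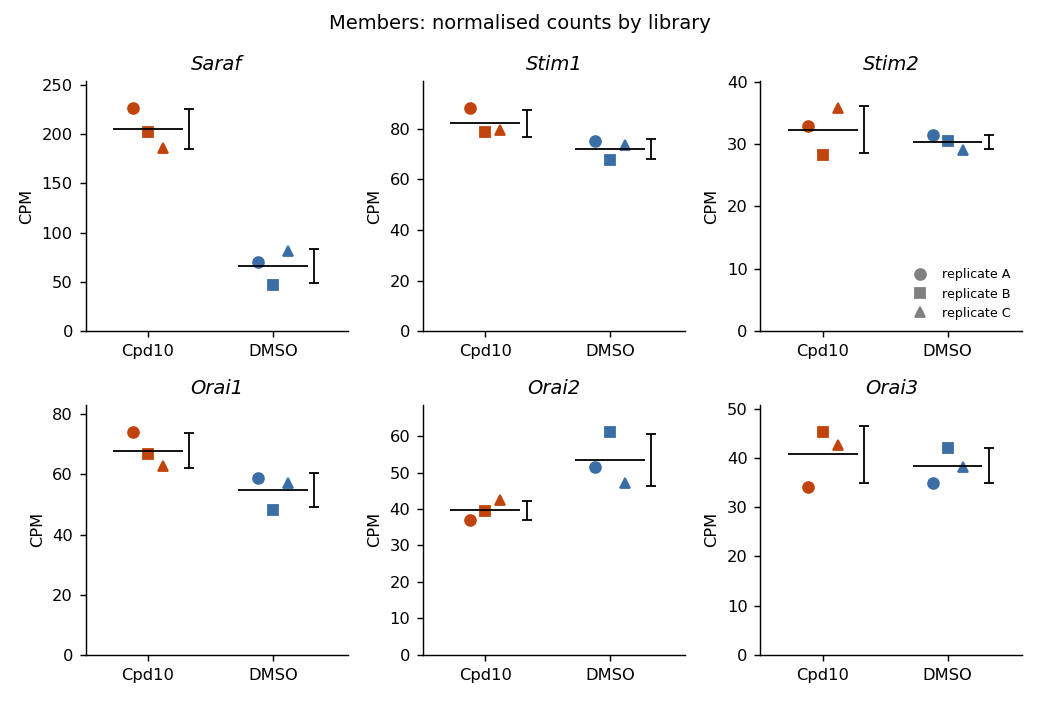
Normalised counts (CPM) of the 6 genes in each library, Cpd10 left and DMSO right in each panel; symbols give the replicate letter, lines the mean and bars the SD (n = 3). Saraf at 186 to 226 CPM in Cpd10 stands clear of 47.1 to 81.5 CPM in DMSO, while Stim2 and Orai3 overlap between the groups.

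The calcium sensors differed little between the groups. Stim1 (ENSMUSG00000030987, chromosome 7, 102267806 to 102437319, plus strand), the main activator of the channel, was at 88.3, 78.7 and 79.6 CPM in Cpd10 A, B and C and at 75.1, 67.8 and 73.5 CPM in DMSO A, B and C. The groups did not overlap, but the lowest Cpd10 and highest DMSO libraries lay close together, and the log2 fold change was 0.19 (SE 0.095, adjusted p = 0.689 in edgeR). Stim2 (ENSMUSG00000039156, chromosome 5, 53998499 to 54121057, plus strand), which responds to smaller losses of ER calcium, was at 32.9, 28.3 and 35.8 CPM in Cpd10 and 31.4, 30.4 and 29.1 CPM in DMSO. Its groups overlapped, with a log2 fold change of 0.09 (SE 0.12, adjusted p = 0.910 in edgeR).

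The channel genes lay on both sides of zero. Orai1 (ENSMUSG00000049686, chromosome 5, 123015074 to 123030456, plus strand), the principal subunit of the lymphocyte channel, was at 74.3, 66.8 and 62.7 CPM in Cpd10 A, B and C and at 58.7, 48.3 and 57.1 CPM in DMSO A, B and C. All Cpd10 libraries were above all DMSO libraries, with a log2 fold change of 0.31 (SE 0.12). Its edgeR adjusted p was 0.529.

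Orai2 (ENSMUSG00000039747, chromosome 5, 136147459 to 136170713, minus strand), a subunit that in mouse T cells joins ORAI1 and lowers the current, was at 37.1, 39.5 and 42.4 CPM in Cpd10 and 51.6, 61.2 and 47.2 CPM in DMSO. All Cpd10 libraries were below all DMSO libraries, with a log2 fold change of -0.43 (SE 0.13) and an edgeR adjusted p of 0.348. Orai3 (ENSMUSG00000043964, chromosome 7, 127769815 to 127775150, plus strand) was at 34.1, 45.3 and 42.6 CPM in Cpd10 and 34.95, 42.1 and 38.1 CPM in DMSO. The groups overlapped, with a log2 fold change of 0.08 (SE 0.14, adjusted p = 0.926 in edgeR).

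RefSeq promoter windows (GRCm38.p6, 250 bases before to 50 bases after a gene's start) were at hand for 5 of the 6 genes, all but Saraf. The 250 bases before the RefSeq start are printed for Orai1 and Orai2, because these channel genes lay on opposite sides of zero. The run for Orai1 is chr5:123014824-123015073 on the plus strand, and that for Orai2 is chr5:136170657-136170906 on the minus strand. Capitals mark CACGTG, the palindromic E-box, a motif picked after the sequences had been seen.
Orai1: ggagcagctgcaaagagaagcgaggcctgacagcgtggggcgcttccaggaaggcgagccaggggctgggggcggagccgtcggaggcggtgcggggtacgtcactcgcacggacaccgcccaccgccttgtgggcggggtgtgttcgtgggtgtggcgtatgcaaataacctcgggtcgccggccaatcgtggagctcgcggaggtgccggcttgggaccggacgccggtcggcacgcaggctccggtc
Orai2: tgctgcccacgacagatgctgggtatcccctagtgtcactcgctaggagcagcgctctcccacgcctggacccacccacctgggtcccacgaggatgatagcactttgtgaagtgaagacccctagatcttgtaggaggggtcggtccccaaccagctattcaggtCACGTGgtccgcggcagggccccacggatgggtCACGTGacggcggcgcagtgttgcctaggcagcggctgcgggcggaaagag

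The Orai2 run holds CACGTG at positions 167 and 200 of the printed sequence, and that of Orai1 holds none. By the gene coordinates given above, Orai2 starts at 136170713, inside the printed run, and the CACGTG at position 200 lies past that start. Over the 300-base windows, 7.15% of 32851 RefSeq windows have CACGTG, and those of Stim1, Stim2 and Orai3 have none. The FOXO core letters GTAAACA, searched on both strands, were in none of the 5 windows and in 3.65% of all. The NFAT core letters GGAAA, on both strands, were in the windows of Orai2 and Orai3 and in 61.3% of all. The letters CCAAT, on both strands, were in the windows of Stim2, Orai1 and Orai3 and in 37.4% of all. These are matches of letters only.

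Of the 6 genes, 3 were higher in every Cpd10 library, 1 was lower in every Cpd10 library and the others overlapped; groups did not overlap for 14.6% of all tested genes. An unadjusted p under 0.05 was found for 3 (Saraf, Orai1 and Orai2), beside 8.39% of all tested genes, and since the genes were chosen with this contrast known, nothing is read from these counts. With the library set as a term beside the treatment, Saraf (1.81, SE 0.12), Orai1 (0.39, SE 0.09, adjusted p = 0.0245 in edgeR) and Orai2 (-0.50, SE 0.10, adjusted p = 0.0111 in edgeR) were called, beside 3.96% of all tested genes. Orai1 had log2 differences of 0.36 and 0.42 within sets 1 and 2, and Orai2 had -0.41 and -0.58. Orai3 turned from -0.10 within set 1 to 0.06 within set 2.

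**Figure D2:**
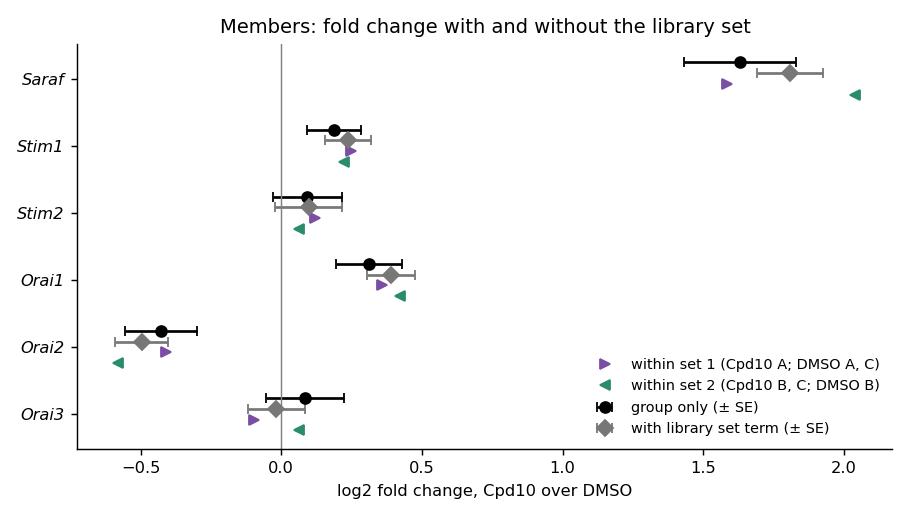
Log2 fold change, Cpd10 over DMSO, of each gene from the fit with the treatment alone and from the fit with the library set term (bars: SE), and the plain log2 difference within each set (n = 1 against 2 libraries in set 1 and 2 against 1 in set 2). Saraf lies at 1.59 to 2.04 in all of them, Orai1 to the right of zero and Orai2 to the left.

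Levels were compared between genes as TPM, transcript levels per length, computed from the deposited counts and the length of each gene's principal transcript. In Cpd10 the order was Saraf (212 ± 33.1 TPM), Orai1 (69.7 ± 10.1), Orai3 (38.9 ± 3.29), Stim1 (38.7 ± 5.04), Orai2 (19.5 ± 1.22) and Stim2 (12.6 ± 1.97; SD, n = 3), and only the neighbours Orai3 and Stim1 overlapped. The DMSO order in TPM was the same, with Saraf at 70.3 ± 20.0, Orai1 at 57.7 ± 9.23, Orai3 at 37.7 ± 1.52, Stim1 at 34.9 ± 4.07, Orai2 at 26.8 ± 3.30 and Stim2 at 12.1 ± 1.24, but there Saraf also overlapped with Orai1.

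The order depends on the length used, an alternative chosen after the data had been seen. Over all annotated exons (10371 bases for Stim1, against 4085 in its principal transcript), Saraf averaged 203 TPM and Orai1 85.8 TPM in Cpd10, and Saraf averaged 65.5 TPM and Orai1 69.4 TPM in DMSO. Stim1 then averaged 23.0 TPM in Cpd10 and 20.2 TPM in DMSO, and Orai2 averaged 18.9 TPM in Cpd10 and 25.5 TPM in DMSO, so that Stim1 passed below Orai2 in DMSO alone.

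Ratios within a library do not depend on its scaling. Saraf per Stim1, in TPM, was 5.63, 5.64 and 5.12 in Cpd10 A, B and C and 2.04, 1.53 and 2.43 in DMSO A, B and C. Every Cpd10 library thus exceeded every DMSO library in the level of the inactivator against that of the sensor. Saraf was chosen for its rise and Stim1 differed little, so this ratio largely restates the Saraf values. Saraf per Orai1 was 3.04 ± 0.0468 in Cpd10 and 1.21 ± 0.228 in DMSO (SD, n = 3 each). Stim1 per Stim2 overlapped between the groups, at 3.10 ± 0.363 in Cpd10 and 2.88 ± 0.182 in DMSO.

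The summed level of the channel genes also overlapped, at 136, 123 and 125 TPM in Cpd10 A, B and C and 132, 117 and 118 TPM in DMSO A, B and C, while the Orai2 share of it did not. Orai2 made up 14.4%, 14.8% and 16.5% of the Orai sum in Cpd10 and 21.3%, 25.1% and 19.6% in DMSO. Orai1 made up 59.8%, 52.0% and 50.9% in Cpd10 and 50.5%, 41.2% and 49.4% in DMSO, without overlap but with Cpd10 C and DMSO A nearly level, and they overlapped when all annotated exons set the length. Orai1 per Orai2 was accordingly 4.17, 3.52 and 3.08 in Cpd10 and 2.37, 1.64 and 2.52 in DMSO.

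**Figure D3:**
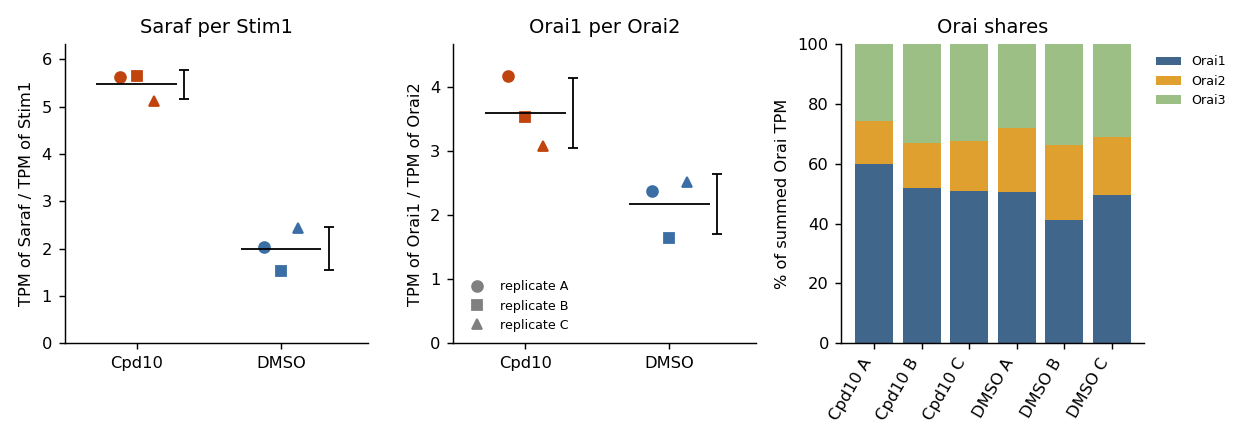
Left and middle, the ratio of TPM values of Saraf to Stim1 and of Orai1 to Orai2 in each library, with the mean and SD (n = 3); right, the share of each channel gene in the summed Orai TPM of each library. The Saraf ratio is 5.12 to 5.64 in Cpd10 and 1.53 to 2.43 in DMSO, and the Orai2 share is 14.4 to 16.5% in Cpd10 and 19.6 to 25.1% in DMSO.

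The tested gene that starts closest to Saraf, Leprotl1, also rose. Leprotl1, which encodes a membrane protein of the endosomal system (ENSMUSG00000031513, chromosome 8, 34135572 to 34147033, minus strand), faces away from Saraf, and the 2 annotated starts are 7542 bases apart. It was at 48.8, 51.2 and 49.5 CPM in Cpd10 A, B and C and at 29.1, 24.6 and 31.4 CPM in DMSO A, B and C, with no overlap between the groups. Its log2 fold change was 0.81 (SE 0.12, adjusted p = 0.0481 in edgeR). That call sat at the threshold and depended on the setting. The edgeR adjusted p ran from 0.0538 to 0.281 in the 6 fits that each left out a library. It was 0.0684 without normalisation factors and 0.0682 with the replicate block. Other settings gave lower values, 0.00566 without the filter and 0.000717 with the set term in edgeR, and 0.000142 in DESeq2. The log2 fold change kept between 0.72 and 0.89 in the leave-one-out fits.

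Looking at neighbours was decided after these values had been seen. Within 1000 kb of the Saraf start, 14 other genes were tested and 2 were called, Leprotl1 and Dusp4, a phosphatase of MAP kinases that starts 652.72 kb away, beside the 0.370% called among all genes. Dusp4 was at 331, 367 and 384 CPM in Cpd10 A, B and C and at 148, 156 and 118 CPM in DMSO A, B and C (log2 fold change 1.36, SE 0.13, adjusted p = 0.0145 in edgeR). This call too was lost without any one of Cpd10 B, Cpd10 C, DMSO A or DMSO C, with edgeR adjusted p up to 0.119. With the set term the edgeR adjusted p of Dusp4 was 8.31e-06. Dctn6, which encodes a dynactin subunit and starts 45.78 kb from Saraf on the far side of Leprotl1, had a log2 fold change of 0.14 (SE 0.17, adjusted p = 0.896 in edgeR). The median over the 14 neighbours was 0.08. No exon base of Saraf is shared with another annotated gene; Orai1 shares 7 exon bases with the antisense gene Gm2479.

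**Figure D4:**
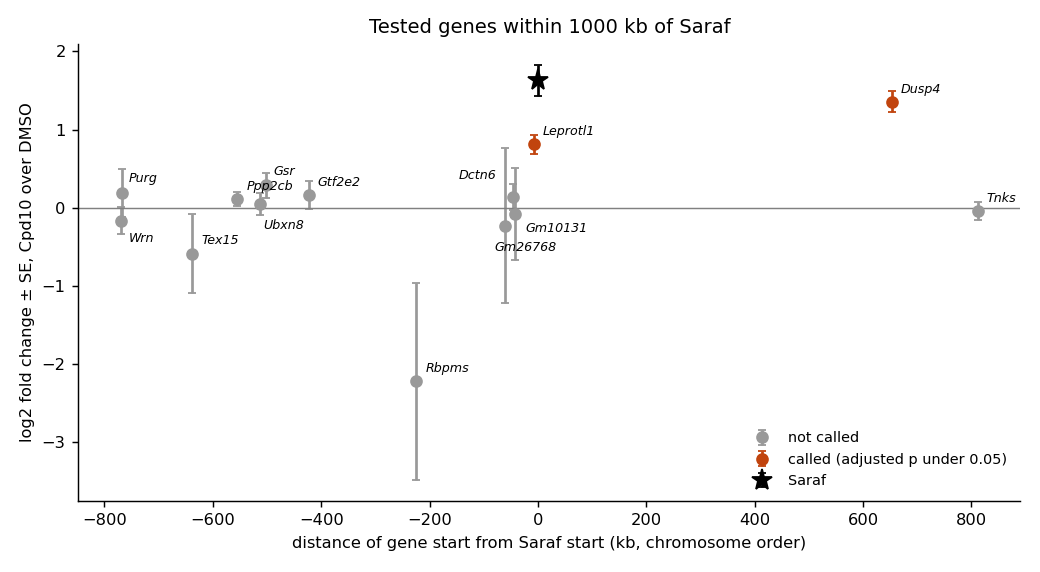
Log2 fold change, Cpd10 over DMSO (bars: SE), of the 14 tested genes that start within 1000 kb of Saraf, against the distance of their start from that of Saraf in kb. Leprotl1, beside Saraf, and Dusp4, at 652.72 kb, are the called genes; low-count genes such as Rbpms have wide errors.

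The 10 genes whose levels followed Saraf most closely over the 6 libraries, by Pearson's r of log2 CPM, with genes averaging under 10 CPM left out, were Arf6, Ubald1, Leprotl1, Atxn7l3, Nab1, Tigit, Ints6l, Rngtt, Stap1 and Cotl1, with r from 0.980 to 0.994. The points share their libraries and depth, and the values largely carry the difference between the treatments. Arf6 (r = 0.994), a small GTPase of membrane traffic, was at 273, 263 and 266 CPM in Cpd10 A, B and C and 215, 192 and 213 CPM in DMSO A, B and C. Tigit (r = 0.985), an inhibitory receptor of lymphocytes, was at 62.9, 66.3 and 66.0 CPM in Cpd10 and 26.4, 20.2 and 35.7 CPM in DMSO. Like Saraf, these genes had their lowest level in DMSO B. Among the partners of Saraf the same measure gave 0.924 for Orai1, 0.900 for Stim1, 0.313 for Stim2, 0.0832 for Orai3 and -0.970 for Orai2.

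Beyond the 6 genes, 125 genes of calcium handling and calcium signalling in 7 lists were examined (126 identifiers, 112 tested). None passed edgeR's test over all genes in either direction, beside 0.370% of all tested genes. With so small a share, a count of 0, here or in a single list below, is not read as a result about these genes. Before adjustment, p was under 0.05 for 14 of these 112 (12.5%, beside 8.39% of all tested genes), and the groups did not overlap for 14.3% (beside 14.6%). DESeq2 called 4 of 116 (Ryr2 and Atp2b4 higher, Cd72 and Gramd2 lower), or 3.45% beside 2.00% of all genes to which it gave an adjusted p. Limma-voom called 0 of 112 (15 at an unadjusted p under 0.05), beside 0.330% of all tested genes. With the set term, edgeR called 6, or 5.36% beside 3.96% of all genes: Ryr2, Atp2b4, Nfatc2 and Irf4 higher, and Cd72 and Ppp3ca lower. The median log2 fold change over the 112 was -0.01, and over all tested genes it was -0.0012.

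Among genes that release calcium from the ER or pump it back, 0 of 13 passed (1 at an unadjusted p under 0.05; median 0.05). Ryr2, a ryanodine receptor that releases ER calcium and is best known from heart muscle, was at 67.7, 28.5 and 43.6 CPM in Cpd10 A, B and C and 16.1, 8.67 and 22.5 CPM in DMSO A, B and C. The groups did not overlap but each spread widely, and the log2 fold change was 1.56 (SE 0.43, adjusted p = 0.324 in edgeR) without the set term and 1.93 (SE 0.21, adjusted p = 0.00233 in edgeR) with it. Atp2a3, the SERCA3 pump that refills the ER in lymphocytes, had 0.27 (SE 0.13, adjusted p = 0.685 in edgeR), and Itpr1, a receptor for inositol trisphosphate, had -0.27 (SE 0.16, adjusted p = 0.738 in edgeR). Ryr1, another ryanodine receptor, had -0.67 (SE 0.42, adjusted p = 0.769 in edgeR).

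Of 17 tested genes that move calcium across the plasma membrane or the mitochondrial membrane, 0 passed (3 at an unadjusted p under 0.05; median 0.05). Atp2b4, the PMCA4 pump that expels calcium, was at 7.91, 12.6 and 17.5 CPM in Cpd10 A, B and C and 2.62, 8.31 and 2.38 CPM in DMSO A, B and C, where Cpd10 A lay below DMSO B. Its log2 fold change was 1.52 (SE 0.54, adjusted p = 0.501 in edgeR), and with the set term 1.25 (SE 0.22, adjusted p = 0.00749 in edgeR). Mcur1 and Smdt1, regulators of the mitochondrial calcium uniporter, had -0.45 and 0.25 (adjusted p = 0.510 and 0.562 in edgeR). Atp2b1, the PMCA1 pump, had -0.21 (adjusted p = 0.688 in edgeR).

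Known modulators of store-operated entry numbered 13 tested genes, of which 0 passed (1 at an unadjusted p under 0.05; median -0.04). Gramd2, which acts at contacts of the ER with the plasma membrane, was low, at 0.485, 0.685 and 0.293 CPM in Cpd10 and 1.23, 2.09 and 5.16 CPM in DMSO (log2 fold change -2.53, SE 0.64, adjusted p = 0.241 in edgeR). Pdia3, a disulfide isomerase of the ER, had -0.29, Tespa1, an adaptor of lymphocyte calcium signalling, had -0.77 (adjusted p = 0.629 and 0.620 in edgeR), and Cracr2a, a calcium-binding regulator of ORAI channels, had -0.42 (SE 0.22, adjusted p = 0.697 in edgeR). Of 13 tested genes of other calcium channels and related proteins, 0 passed (1 at an unadjusted p under 0.05; median -0.16). Ms4a1, which encodes CD20, was at 318, 279 and 284 CPM in Cpd10 A, B and C and 551, 277 and 556 CPM in DMSO A, B and C, so that DMSO B lay just below the Cpd10 libraries and far from DMSO A and C (adjusted p = 0.560 in edgeR). Trpm4, Mcoln2 and Piezo1, other cation channels, had -0.43, -0.49 and -0.18 on the log2 scale (adjusted p = 0.644, 0.733 and 0.770 in edgeR).

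Upstream of calcium release, 0 of 20 tested genes of B cell receptor signalling passed (3 at an unadjusted p under 0.05; median 0.00). Cd72, an inhibitory co-receptor, was at 40.4, 59.3 and 53.2 CPM in Cpd10 A, B and C and 108, 88.7 and 112 CPM in DMSO A, B and C (log2 fold change -1.01, SE 0.16, adjusted p = 0.0659 in edgeR, and 0.0193 with the set term). Blnk, the adaptor that brings phospholipase C to the receptor, had -0.40 (SE 0.12, adjusted p = 0.355 in edgeR). Dapp1, an adaptor that binds membrane phosphoinositides, had 0.20 (SE 0.11, adjusted p = 0.714 in edgeR), and Plcg1, a phospholipase C, had -0.26 (SE 0.11, adjusted p = 0.562 in edgeR).

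Downstream, 0 of 23 tested calcineurin and NFAT genes passed (4 at an unadjusted p under 0.05; median 0.11). Nfatc1 was at 91.1, 74.5 and 88.1 CPM in Cpd10 A, B and C and 112, 97.1 and 122 CPM in DMSO A, B and C (log2 fold change -0.39, SE 0.12, adjusted p = 0.401 in edgeR). Nfatc2 lay the other way, at 35.6, 25.3 and 32.7 CPM in Cpd10 and 24.5, 19.5 and 25.0 CPM in DMSO (0.44, SE 0.17, adjusted p = 0.531 in edgeR, and 0.0288 with the set term). Calm3, a calmodulin gene, had 0.21 (SE 0.09, adjusted p = 0.577 in edgeR). Ppp3ca, a catalytic subunit of calcineurin, had -0.60 (SE 0.23, adjusted p = 0.541 in edgeR, and 0.0280 with the set term).

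Genes known to respond to NFAT had a median log2 fold change of -0.48 over 13 tested (-0.39 with the set term), beside -0.0012 over all genes. Of the 13, 5 were above 0, 0 passed and 1 had an unadjusted p under 0.05 in edgeR. The SEs of the single genes ran from 0.18 to 0.86, so no lower NFAT response is read from this median. Egr2 was at 110, 114 and 145 CPM in Cpd10 A, B and C and 299, 152 and 140 CPM in DMSO A, B and C, and Cd69, an early activation marker, at 77.0, 62.6 and 67.6 CPM in Cpd10 and 207, 90.0 and 80.5 CPM in DMSO. In both genes DMSO A stood well above the other libraries of its group (adjusted p = 0.619 and 0.603 in edgeR). Il10, an inhibitory cytokine, was low, at 1.01, 1.47 and 1.22 CPM in Cpd10 and 0.134, 0.606 and 0.584 CPM in DMSO (log2 fold change 1.49, SE 0.63, adjusted p = 0.585 in edgeR). Irf4, a transcription factor of activated B cells, had 0.39 (SE 0.18, adjusted p = 0.619 in edgeR, and 0.0131 with the set term).

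**Figure D5:**
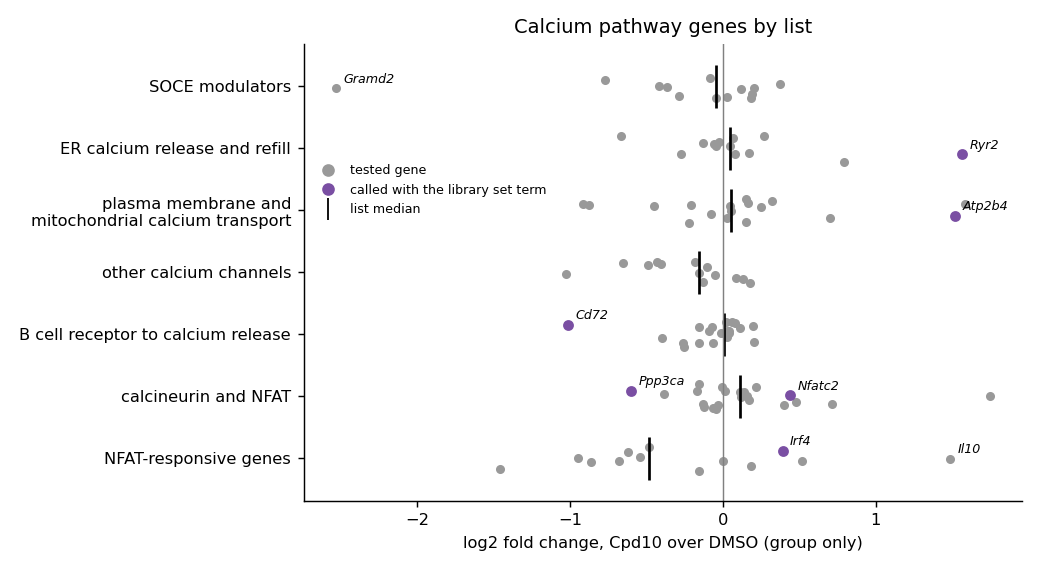
Log2 fold change, Cpd10 over DMSO, of each tested gene in the 7 calcium lists from the fit with the treatment alone; the black line is the list median, purple marks genes called in the fit with the library set term, and labels name the purple genes and those of the text with the largest changes. No gene of these lists passed in the fit shown, beside 0.370% of all tested genes. The NFAT-responsive list has the lowest median, -0.48, over genes whose SEs reach 0.86.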

How the data were processed

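RNA was measured by poly A selected, directional RNA sequencing. The values deposited by the authors are raw counts of reads per gene in a single table. STAR 2.7.10a, featureCounts 2.0.6, DESeq2 and GRCm38 (mm10) are named in the submitters' processing notes; the strand setting of the counting step is not stated. Symbols, coordinates and lengths come from GENCODE M21 (54809 identifiers matched, 29 did not).

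EdgeR 4.0.16 in R 4.3.3 was run on all genes with TMM, filterByExpr and a robust quasi-likelihood fit, with the group as the only term. P-values were Benjamini-Hochberg adjusted over 15136 genes, and genes under 0.05 are called. Each SE is the absolute log2 change over the root of the F statistic. Alternatives were DESeq2 1.42.0, limma-voom (limma 3.58.1), other scalings, no filter, a replicate block, a library set term and leaving out each library. The set is the 3 and 3 split of the libraries that separated the most genes (9) at 3 counts or fewer from 50 or more. The procedure was run on simulated data as a check of the code. The simulated spread between replicates was set below that fitted here, and only well-counted genes were changed, by large amounts. That run therefore does not show how reliable the calls in these libraries are.

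The 6 genes and the lists were chosen with earlier results of these data known. By rule the text names, of each of the 7 lists, called genes and up to 4 with the smallest p, and the 10 genes most like Saraf (no clone names, no immunoglobulin segments). The neighbours of Saraf are outside that rule. The lowest count of the 6 genes in a library was 1106, a counting error of 3.01%. Libraries of a group differed by a chi-square per degree of freedom of 61 to 157, except Cpd10 B and Cpd10 C, which differed by 11.5. Those 2 libraries, both of set 2, were thus much closer to each other than any other pair within a group. Pairs across the groups were not compared in this way. All libraries were kept as separate samples. Nothing says that they are separate cultures: the p-values cover the variation among these libraries alone, and part of it may be technical.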

Additional observations from a re-analysis of the deposited data

How the results depend on the processing

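The log2 fold changes of the 6 genes moved by less than 1 SD between replicates in all 13 alternatives; for Saraf they lay between 1.44 and 1.81, and Orai3 changed sign with the set term (-0.02) and without Cpd10 B (-0.00034). Other scalings and limma-voom gave 50 to 59 called genes. The count was 194 without the filter on low counts, 356 with DESeq2, 599 with the library set term, and 0 to 100 when 1 library was left out: DMSO A gave 5, DMSO B 100, DMSO C 1, Cpd10 A 77, Cpd10 B 1 and Cpd10 C 0 by edgeR (843 at an unadjusted p under 0.05). For the calcium lists the count of 0 became 2 without the filter, 4 with DESeq2, 6 with the set term, and 0 to 2 when 1 library was left out (2, Cd72 and Ms4a1, without DMSO B); the cause of these shifts was not tested. The replicate letters did not pair the libraries throughout: deviations from the group means correlated by 0.309 for A, 0.432 for B and -0.315 for C. Between different letters the correlations ran from -0.599 (Cpd10 A with DMSO B) to 0.464 (Cpd10 A with DMSO C). Cpd10 C with DMSO B had 0.411. With the replicate block 49 genes were called and Saraf had 1.66 (edgeR adjusted p = 0.0329). Without normalisation factors the median of all genes moved by -0.03. Genes under about 1 CPM rest on few counts.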
